A study of Mus musculus with 16 samples.

Results

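Tumor RNA of mice that received the TGF-β receptor inhibitor SB525334 together with the antibody KN046 was compared with tumor RNA of mice that received SB525334 alone. By their labels the groups differ in the antibody added to the inhibitor. Whether other differences between the samples, such as the tissue kept, add to the values was not tested. The members were chosen by their treatment labels and comprise 8 of the 16 mice sequenced, 4 treated with SB525334 and 4 treated with SB525334 + KN046, called the combination from here on. The mice were male, wild-type C57BL/6 and 6 weeks old when MC38 cells, a mouse colon adenocarcinoma line, were injected into the lower part of the spleen, from where such cells seed the liver. Both groups received SB525334 by daily oral gavage at 20 mg/kg, and the combination mice also received KN046 intraperitoneally at 10 mg/kg 2 times a week. The labels give the tissue of all 8 mice as liver metastases. The PBS control mice and the mice on KN046 alone entered an alternative with all 16 mice in the fit. For a few genes their levels are also given, without a test. The total count per mouse was 21584449 to 23877131 with SB525334 and 18368994 to 20921926 with the combination. Nothing in the labels says how many nodules each sample held or how much tissue around the tumor was kept, and p-values measure the spread between these 8 samples.

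SB525334 blocks ALK5, the type I TGF-β receptor encoded by Tgfbr1, which phosphorylates SMAD2 and SMAD3 and so drives fibroblasts toward a contractile, matrix-producing state. KN046 is an antibody against PD-L1 and CTLA-4, a ligand and a receptor that restrain T cells. Activated cytotoxic T cells and NK cells kill targets with perforin and granzymes and secrete interferon-γ, which induces guanylate-binding proteins, immunoproteasome subunits and PD-L1 in the cells around them.

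In the combination 57 genes were higher and 237 were lower than with SB525334, out of 13114 genes tested (edgeR quasi-likelihood test, Benjamini-Hochberg adjusted p under 0.05). These calls make up 2.24% of the genes tested in either direction, 0.435% for higher genes and 1.81% for lower genes. Over all genes tested the log2 fold changes had a median of 0.01, and 1175 genes had an unadjusted p under 0.05. A positive log2 fold change was found for 52.7% of the genes tested, and 786 (5.99%) had no overlap between the groups. Among genes called lower, 137 of 237 differed by over 16-fold as fitted, and among genes called higher 7 of 57 did. In 63 of the lower genes no combination mouse held more than 3 counts. Levels are given in CPM, counts relative to the TMM-scaled library size, which corrects for depth but not for gene length, so an order of genes by CPM also reflects their lengths.

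**Figure D1:**
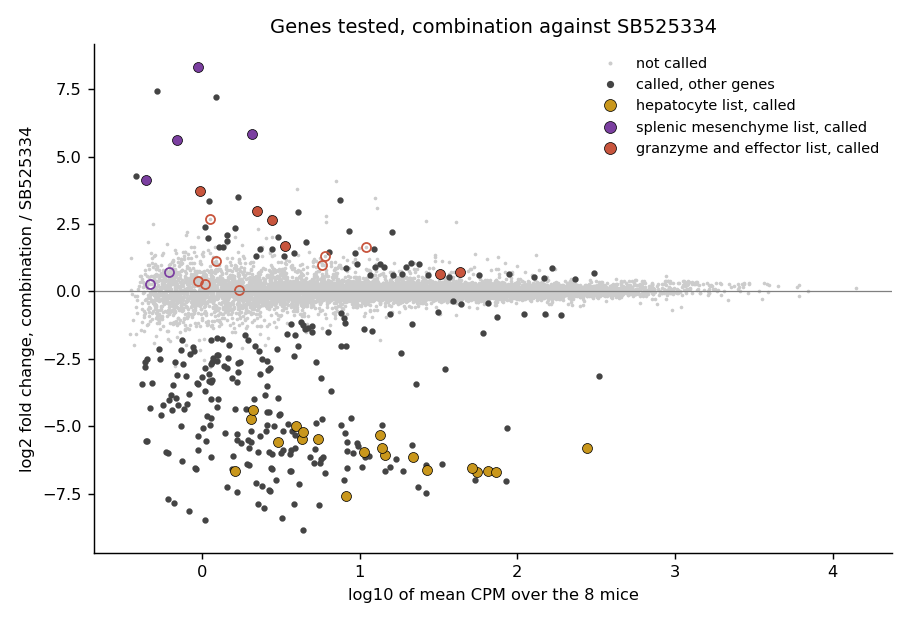
Log2 fold change (combination over SB525334) against the log10 of mean CPM over the 8 mice, 1 point per gene tested. Grey points were not called, black points were called, and colored points belong to the hepatocyte, splenic mesenchyme and granzyme lists, filled where called. All 20 hepatocyte genes lie at -4.41 or below, while the called splenic mesenchyme genes lie at 4.13 or above as fitted.

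Hepatocyte RNA was lower in every combination mouse. All 20 genes of a hepatocyte list fell in the combination, with a median log2 fold change of -5.89 and a range from -7.60 to -4.41. For Apoc3, F2, Cps1, Cyp3a11, Tat, Tdo2, Hpd and Asgr1 the direction was set by the filter, which they passed only through the SB525334 mice. Alb (ENSMUSG00000029368, chromosome 5, 90608647 to 90624696 of GRCm39), which encodes serum albumin, had 658, 879, 496 and 130.4 CPM in SB525334 mice 1 to 4 and 9.43, 10.2, 11.7 and 7.15 CPM in combination mice 1 to 4. Alb was thus detected in all 8 mice, which were all labelled as liver metastases, and all combination mice were below the lowest SB525334 mouse, mouse 4, and the group means were 541 ± 315 and 9.62 ± 1.90 CPM (SD, n = 4 mice each), a log2 difference (fitted log2 fold change, combination over SB525334) of -5.82 (SE 0.51, adjusted p = 3.73e-05 from edgeR). Summed over the list, hepatocyte genes reached 1560.2, 1983, 1259 and 373 CPM in SB525334 mice 1 to 4 and 18.8, 18.5, 24.1 and 14.5 CPM in combination mice 1 to 4. The lowest SB525334 value belonged to mouse 4 for all 20 genes, against 23.97% of all genes tested. Apoa1, apolipoprotein A1, the main protein of high-density lipoprotein, fell by 6.69 on the log2 scale (adjusted p = 1.37e-05), from 146 ± 76.8 to 1.42 ± 0.408 CPM. Fgb, a fibrinogen chain, fell by 6.68, and Ttr, the thyroxine carrier transthyretin, fell by 6.60. Cyp2e1, a cytochrome P450 of the central lobule, fell by 5.82. Tat, an enzyme of tyrosine breakdown, had the smallest change of the list (-4.41, adjusted p = 0.00487) and lost its call with combination mice 1 and 4 both left out (adjusted p = 0.0552), as did Cyp3a11 (0.0616). Every gene of the list kept its call in all 8 fits that left out 1 mouse. In bulk tumor RNA, fewer hepatocytes and less RNA of these genes per hepatocyte cannot be told apart.

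Among transcription factors that maintain hepatocyte identity 2 were called lower, Hnf4a and Creb3l3. Of 14 listed factors 6 passed the filter on low counts and 8 were not tested. All 6 had a negative log2 fold change and an unadjusted p under 0.05 in edgeR, with a median of -1.49. Hnf4a and Creb3l3 passed it only through the SB525334 mice, so that their direction was set by the filter. Hnf4a, the nuclear receptor at the center of the hepatocyte program, had 6.96, 8.37, 4.08 and 2.09 CPM in SB525334 mice 1 to 4 and 0, 0, 0.110 and 0 CPM in combination mice 1 to 4, with 3 of the 4 combination mice at 0. The ratio of SB525334 to combination was 207 (95% counting interval 57.0 to 1714) from 2 counts in the combination mice (adjusted p = 0.000151). Creb3l3, a membrane-bound factor that controls fasting metabolism, fell from 2.80 ± 1.29 to 0.298 ± 0.165 CPM (log2 fold change -3.20, adjusted p = 0.00305). Cebpa and Foxa1, which many epithelia share, had log2 fold changes of -0.34 and -0.37 that did not pass the threshold (adjusted p = 0.372 and 0.446). Prox1 and Nr1h4 were not called either, with log2 fold changes of -1.81 and -1.19 in DESeq2 (adjusted p = 0.136 and 0.489).

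The 10 largest falls were Saa2, Cldn2, Kng2, Cldn3, Cyp2d10, Saa1, C4bp, Serpina7, Aqp8 and F13b, and all but the claudins and Aqp8 encode plasma proteins or an enzyme of the liver. All 10 passed the filter on low counts only through the SB525334 mice, so that their direction was set by the filter. Cldn2, a pore-forming claudin of tight junctions, had 2.24, 2.16, 2.02 and 1.92 CPM with SB525334 and no count with the combination, at least 13.2-fold lower when 3 counts are set in each combination mouse. On the same floor Cldn3, a sealing claudin, was at least 10.4-fold lower, the water channel Aqp8 at least 8.46-fold and F13b, a subunit of coagulation factor XIII, at least 7.66-fold. C4bp, which inhibits the classical complement pathway, had 11.6, 10.4, 6.53 and 2.01 CPM in SB525334 mice 1 to 4 and 0.104, 0, 0 and 0 CPM in combination mice 1 to 4, a ratio of 292 (95% counting interval 80.6 to 2418). For Kng2, a kininogen, the ratio was 491 (95% counting interval 87.7 to 19410.2), and for Serpina7, thyroxine-binding globulin, it was 339.7 (95% counting interval 60.6 to 13450.2). Kng2 and Cyp2d10 share 17.9% and 38.6% of their 50-base exon words with other genes, mainly Kng1 and Cyp2d11, so the split of reads between these paralogs is uncertain. Saa1 and Saa2, inducible serum amyloids, share 11.7% and 12.8% with other genes, and were spread widely among the SB525334 mice (24.7, 2.48, 14.6 and 2.27 CPM for Saa1). Saa2 lost its call when combination mouse 1 was left out (adjusted p 0.0502).

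By mean CPM, the highest of the genes that fell were Trf, Alb, C3, Clu and Hp. Transferrin (Trf), the iron carrier of plasma, had 689.9, 723, 582 and 371 CPM in SB525334 mice 1 to 4 and 66.1, 56.7, 61.5 and 82.1 CPM in combination mice 1 to 4, and its log2 fold change was -3.15 (SE 0.20, adjusted p = 5.08e-06). Haptoglobin (Hp), which binds free hemoglobin, fell from 168 ± 74.1 to 4.92 ± 2.87 CPM, a log2 difference of -5.08. Clu, a secreted chaperone, fell less, from 194 ± 20.8 to 107 ± 31.0 CPM (log2 fold change -0.85, adjusted p = 0.0168), and lost its call when SB525334 mouse 1 or 2 or combination mouse 3 was left out (adjusted p 0.0510 to 0.0673). Gc, the vitamin D-binding protein, went from 107 ± 37.0 to 0.838 ± 0.406 CPM and Vtn, vitronectin, from 41.7 ± 22.1 to 3.90 ± 2.21 CPM, both called lower and both named after their values were seen. Together the 237 lower genes took 0.600, 0.661, 0.473 and 0.267% of all counts in SB525334 mice 1 to 4 and 0.0809, 0.0666, 0.0747 and 0.0906% in combination mice 1 to 4.

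**Figure D2:**
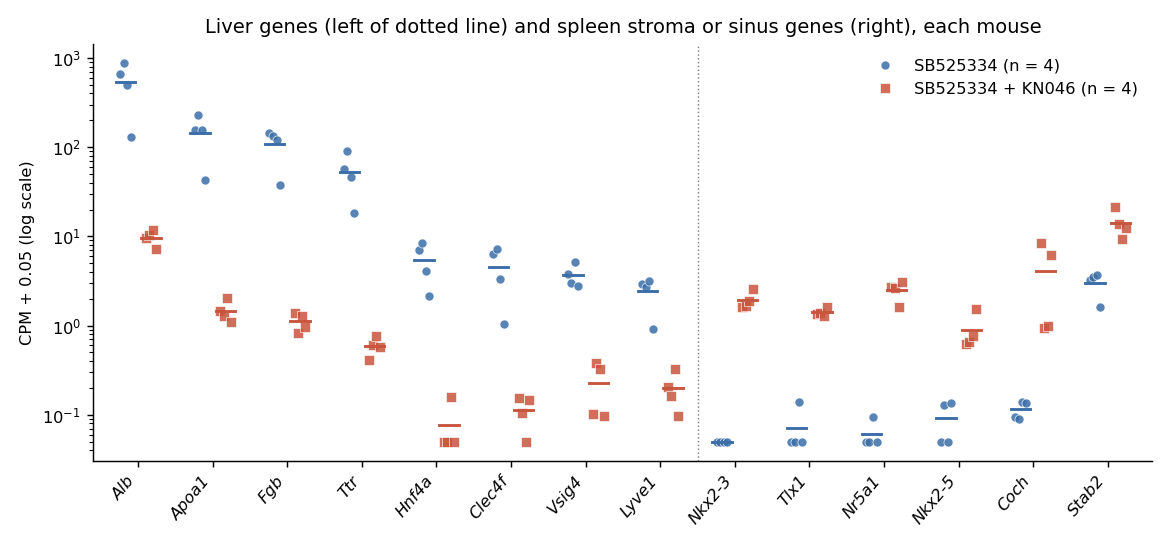
CPM + 0.05 on a log scale for 14 genes in each mouse, with SB525334 mice as blue circles, combination mice as red squares and the group mean as a bar. Left of the dotted line, genes of hepatocytes, Kupffer cells and liver sinusoids are lower in all 4 combination mice. To its right, 5 genes of splenic stroma and the sinusoid receptor Stab2 are higher in all 4.

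Among 14 tested acute-phase genes 11 fell, with a list median of -5.71. Hemopexin (Hpx), the heme carrier, had 238, 172, 190.3 and 69.7 CPM in SB525334 mice 1 to 4 and 0.8293, 1.503, 1.82 and 1.05 CPM in combination mice 1 to 4, and fell by 7.02 on the log2 scale (adjusted p = 3.28e-06). Orm1 and Orm2, α1-acid glycoproteins that share 19.1% and 22.7% of exon words, mostly with each other, had log2 differences of -6.09 and -5.44. Ceruloplasmin (Cp), a copper oxidase that is not limited to liver, fell by only 0.93 (97.9 ± 19.5 to 51.3 ± 9.23 CPM, adjusted p = 0.00752). Lbp, the lipopolysaccharide-binding protein, did not pass the threshold (108.2 ± 23.3 and 94.5 ± 5.44 CPM, adjusted p = 0.753). Of 19 complement genes 7 fell and 0 rose, and the list median was -0.58. The members of the terminal pore C8a, C8b and C9 had means of 5.52, 1.86 and 4.04 CPM with SB525334 and 0.0506, 0.0258 and 0.248 CPM with the combination. Cfi and Mbl2, a complement protease and a mannose-binding lectin made by hepatocytes, both fell, with log2 differences of -6.34 and -5.27. Orm1, Orm2, C8a, C8b, C9, Cfi and Mbl2 passed the filter on low counts only through the SB525334 mice, which set their direction. Masp1, the protease that partners with the lectins, fell by 2.60 (adjusted p = 0.0302) and lost its call when SB525334 mouse 1, 2 or 3 or combination mouse 3 was left out (adjusted p 0.0514 to 0.0950).

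Other cells that reside in liver gave a mixed picture. Of 7 tested Kupffer cell genes 2 fell. Clec4f, a lectin of Kupffer cells, had 6.22, 7.21, 3.29 and 1.003 CPM in SB525334 mice 1 to 4 and 0.104, 0.0557, 0 and 0.0954 CPM in combination mice 1 to 4 (log2 fold change -5.96, adjusted p = 0.000681). Vsig4, a complement receptor of resident macrophages, fell from 3.62 ± 1.08 to 0.177 ± 0.149 CPM (log2 fold change -4.35). Both genes passed the filter on low counts only through the SB525334 mice, so that their direction was set by the filter. Cd5l, which resident macrophages secrete, had 9.93, 6.93, 6.23 and 3.92 CPM with SB525334 and 2.44, 0.724, 0.552 and 5.72 CPM with the combination, where mouse 4 lay inside the SB525334 range (log2 fold change -1.496, adjusted p = 0.394), and it was called lower when combination mouse 4 was left out (adjusted p 0.0274). Over the Kupffer list the summed level was 29.1, 26.7, 24.7 and 12.5 CPM with SB525334 and 10.99, 8.63, 5.41 and 18.2 CPM with the combination. None of the 12 general macrophage genes was called by edgeR or DESeq2 (list median 0.04), and 2 had an unadjusted p under 0.05 in edgeR.

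Markers of sinusoidal endothelium moved in opposite directions. Lyve1, a hyaluronan receptor of liver sinusoids and lymphatics, fell from 2.38 ± 1.02 to 0.148 ± 0.0964 CPM (log2 fold change -3.98, adjusted p = 0.00127). It passed the filter on low counts only through the SB525334 mice, so that its direction was set by the filter. Stab2 (ENSMUSG00000035459, chromosome 10, 86675054 to 86843889), a scavenger receptor of sinusoids in liver and spleen, rose instead, with 3.16, 3.48, 3.64 and 1.57 CPM in SB525334 mice 1 to 4 and 21.0, 13.7, 9.33 and 12.4 CPM in combination mice 1 to 4. All combination mice were above all SB525334 mice, and the log2 fold change was 2.25 (SE 0.30, adjusted p = 0.000876). Clec4g, another lectin of liver sinusoids, was at 0.869, 0.961, 1.01 and 0.0436 CPM with SB525334, with 3 of 4 combination mice at 0, and was too low to be tested. Of the 5 tested genes of the sinusoidal list, 1 was thus called higher and 1 lower, and the list median was 0.11.

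No gene of a list for endothelium in general was called by edgeR. Of 10 pan-endothelial genes 9 had a positive log2 fold change and 0 passed the threshold in edgeR, with a median of 0.43, 3 genes at an unadjusted p under 0.05 and 2 called higher by DESeq2. Pecam1, an adhesion protein of all endothelium, had 18.1, 20.1, 19.4 and 9.33 CPM in SB525334 mice 1 to 4 and 30.8, 30.0, 21.6 and 35.6 CPM in combination mice 1 to 4 (log2 fold change 0.82, adjusted p = 0.117 in edgeR and 0.0160 in DESeq2). SB525334 mouse 4 was the lowest for 9 of the 10 genes, and their summed level was 101, 95.9, 112 and 53.2 CPM with SB525334 and 119, 148, 112 and 133 CPM with the combination. Cldn5, Cd36, Slco2a1 and Kcnj8, named with their values known, rose, while Fabp4, which capillaries also express, fell by 2.03 on the log2 scale. Cldn5, the claudin of endothelial tight junctions, went from 2.00 ± 0.884 to 7.16 ± 1.08 CPM (log2 fold change 1.83, adjusted p = 0.00863). Cd36, a fatty acid and thrombospondin receptor of capillaries and macrophages, had 8.37, 5.24, 4.47 and 6.93 CPM with SB525334 and 15.6, 20.6, 15.7 and 21.9 CPM with the combination, with no overlap (log2 fold change 1.56, adjusted p = 0.000892). Slco2a1, a prostaglandin transporter, rose by 1.03 on the log2 scale, and Kcnj8, a potassium channel of pericytes, by 1.45. Kcnj8 lost its call when SB525334 mouse 2 was left out (adjusted p 0.0628), and Slco2a1 with combination mice 1 and 4 both left out (adjusted p = 0.0552). Ly6c1, a surface protein of endothelium and monocytes and the gene with the highest mean CPM among those that rose, had 276, 216, 207 and 241 CPM in SB525334 mice 1 to 4 and 380.1, 332, 338 and 447 CPM in combination mice 1 to 4 (log2 fold change 0.67, adjusted p = 0.0105). It lost its call with combination mice 1 and 4 both left out (adjusted p = 0.0522) and shares 37.5% of its exon words with other genes, mainly Ly6c2.

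Nkx2-3 and Tlx1, factors of splenic stroma, were among the 10 largest rises. Of 6 tested genes of a splenic mesenchyme list 4 rose, Nkx2-3, Tlx1, Nkx2-5 and Coch. These 4 passed the filter on low counts only through the combination mice, so that their direction was set by the filter, and 3 of the 9 listed genes were not tested. Nkx2-3 (ENSMUSG00000044220, chromosome 19, 43600764 to 43604331), a homeobox factor needed for spleen vessels and stroma, had no count in any SB525334 mouse and 1.56, 1.61, 1.82 and 2.53 CPM in combination mice 1 to 4, at least 14.5-fold higher (adjusted p = 0.000251). Tlx1 (ENSMUSG00000025215, chromosome 19, 45139099 to 45145382), the homeobox factor without which the spleen is lost in the embryo, had 0, 0, 0.0877 and 0 CPM in SB525334 mice 1 to 4 and 1.30, 1.34, 1.21 and 1.57 CPM in combination mice 1 to 4, a ratio of 63.1 (95% counting interval 17.0 to 528). Nkx2-5, a homeobox factor of heart and splenic mesenchyme, went from 0.0418 ± 0.0484 to 0.845 ± 0.427 CPM (log2 fold change 4.13, adjusted p = 0.00625). A lack of overlap was part of the rule that named Nkx2-3 and Tlx1. Nkx2-5 was named as a called member of the list and with its values known.

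Coch, Nr5a1 and Pla2g2d were also among the 10 largest rises, a choice that required no overlap. Coch, which encodes the secreted matrix protein cochlin, had 0.0458, 0.0400, 0.0877 and 0.0872 CPM in SB525334 mice 1 to 4 and 8.40, 0.891, 0.939 and 6.06 CPM in combination mice 1 to 4, highest in combination mice 1 and 4 (log2 fold change 5.85, adjusted p = 0.00305). Nr5a1, the nuclear receptor SF-1 of adrenal, gonad and spleen vessels, had 1 count among the SB525334 mice and 2.64, 2.56, 1.55 and 3.05 CPM in the combination mice, a ratio of 229 (95% counting interval 40.6 to 9101). Nkx2-3, Tlx1, Nkx2-5, Coch and Nr5a1 each kept their call in all 8 fits that left out 1 mouse. Nr5a1 and Pla2g2d also passed the filter on low counts only through the combination mice, so that their direction was set by the filter. Pla2g2d, a secreted phospholipase of lymphoid tissue, had 2.44, 0.724, 0.939 and 8.39 CPM with the combination against 0.366, 0.440, 0.175 and 0.0872 CPM with SB525334 (log2 fold change 3.52, adjusted p = 0.0422) and lost its call when SB525334 mouse 1, 2, 3 or 4 or combination mouse 4 was left out (adjusted p 0.0896 to 0.131). On the scale of all 16 mice, Nkx2-3 was at no more than 0.262 CPM and Nr5a1 at no more than 0.131 CPM in the 8 mice of the other groups, and Nkx2-5 had no count there. Stab2, in contrast, had medians of 28.7 CPM in the control mice and 37.9 CPM with KN046 alone. Its medians on that scale were 3.29 CPM with SB525334 and 12.9 CPM with the combination.

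Genes of B cells and red cells were high in some combination mice only. Ms4a1, which encodes the B cell antigen CD20, was at 3.27, 0.445, 0.0552 and 10.9 CPM in combination mice 1 to 4 and at 0.0915, 0.0801, 0.0438 and 0.0872 CPM in the SB525334 mice, so that combination mice 1 and 4 stood out and mouse 3 did not. It failed the filter on low counts, and none of the 4 tested genes of the B and plasma cell list was called by edgeR, although 3 had an unadjusted p under 0.05 and DESeq2 called 2 higher. Cd79a, a chain of the B cell receptor, had a log2 difference of 3.80 (adjusted p = 0.105) with 7.05, 1.06, 0.442 and 21.3 CPM in the combination mice, and was called higher when combination mouse 2 or 3 was left out (adjusted p 0.0243 to 0.0394) and in DESeq2 (adjusted p = 0.0354). The summed level of 10 B and plasma cell genes was 149, 169, 141 and 166 CPM with SB525334 and 182, 186, 147 and 285 CPM with the combination. Hbb-bs, a β-globin of red cells, had 8.69, 9.37, 26.3 and 2.18 CPM with SB525334 and 27.7, 118, 4.09 and 131 CPM with the combination, overlapping between the groups (adjusted p = 0.250), and was called higher when combination mouse 3 was left out (adjusted p 0.0429). It shares 62.3% of its 50-base exon words with Hbb-bt, so the split of reads between them is uncertain. All 5 tested genes of an erythroid list had a positive log2 fold change and an unadjusted p under 0.05 in edgeR. Of these 5 genes 0 were called by edgeR or DESeq2. The tumor cells entered the mice through the spleen, and the part of spleen tissue in the genes that rose was not tested. The 9 listed pancreatic acinar and islet genes summed to at most 0.570 CPM in any of the 8 mice, and 0 of them passed the filter on low counts.

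The other genes among the 10 largest rises were Lrrn1, Gzme, Nts, Col13a1 and Olfml2a. Nts, the neuropeptide neurotensin, had 0.641, 1.201, 2.19 and 1.22 CPM in SB525334 mice 1 to 4 and 15.7, 17.0, 12.4 and 9.97 CPM in combination mice 1 to 4, and its log2 fold change was 3.38 (SE 0.32, adjusted p = 6.86e-05). Lrrn1, a leucine-rich membrane protein, had no count with SB525334 and 1.04, 0.557, 1.33 and 1.19 CPM with the combination, at least 7.91-fold higher. Olfml2a, a secreted olfactomedin-like protein, went from 0.477 ± 0.287 to 3.91 ± 0.367 CPM (log2 fold change 3.01, adjusted p = 0.000553). All 3 genes, whose choice required no overlap, kept their call in all 8 fits that left out 1 mouse. Lrrn1 passed the filter on low counts only through the combination mice, so that its direction was set by the filter. By mean CPM, the highest of the genes that rose were Ly6c1, Ifitm3, Ddit4, Vmp1 and Bst2. Ddit4, an inhibitor of mTORC1 induced by stress, had 142, 127, 101 and 96.1 CPM in SB525334 mice 1 to 4 and 172, 236, 244 and 207 CPM in combination mice 1 to 4 (log2 fold change 0.88, adjusted p = 0.00455), and was not called with all 16 mice in the fit (adjusted p = 0.200). Vmp1, a protein of autophagosome formation, rose by 0.52 in log2 units (adjusted p = 0.0478) and lost its call when SB525334 mouse 1, 2 or 4 or combination mouse 1, 2 or 3 was left out (adjusted p 0.0617 to 0.184).

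Several granzymes of the chromosome 14 cluster and 2 intracellular serpins rose. In a list of cytotoxic effectors 6 of 14 tested genes rose, 0 fell, all 14 had a positive log2 fold change, and the median was 1.23. Over all genes tested 0.435% were called higher and 52.7% had a positive log2 fold change. Gzmc (ENSMUSG00000079186, chromosome 14, 56468857 to 56479211) had 1.65, 1.04, 1.36 and 2.31 CPM in SB525334 mice 1 to 4 and 5.08, 3.90, 6.18 and 5.49 CPM in combination mice 1 to 4. Every combination mouse was above every SB525334 mouse, and the means were 1.59 ± 0.541 and 5.16 ± 0.959 CPM (log2 fold change 1.70, SE 0.28, adjusted p = 0.00500). Gzmd (ENSMUSG00000059256, chromosome 14, 56367013 to 56370065) had 1.42, 0.200, 0.614 and 0.828 CPM in SB525334 mice 1 to 4 and 3.37, 4.17, 7.68 and 3.91 CPM in combination mice 1 to 4, again with no overlap (log2 fold change 2.65, adjusted p = 0.00804). Gzme, at 0.366, 0, 0.132 and 0.0436 CPM with SB525334 and 1.71, 0.724, 2.87 and 1.96 CPM with the combination, had a log2 difference of 3.73 (adjusted p = 0.0114). These 3 calls held in all 8 fits that left out 1 mouse, while Gzmd was not called with all 16 mice in the fit (adjusted p = 0.0559). Gzme passed the filter on low counts only through the combination mice, so that its direction was set by the filter. Gzmg (log2 fold change 2.98, adjusted p = 0.0455) lost its call when SB525334 mouse 3 or 4 or combination mouse 2, 3 or 4 was left out (adjusted p 0.0683 to 0.126), and in DESeq2 (adjusted p = 0.0848). Gzmd, Gzme and Gzmg share 23.1, 20.6 and 19.8% of their 50-base exon words with other genes, mostly each other, so the split of reads between them is uncertain, whereas Gzmc shares 3.95%.

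**Figure D3:**
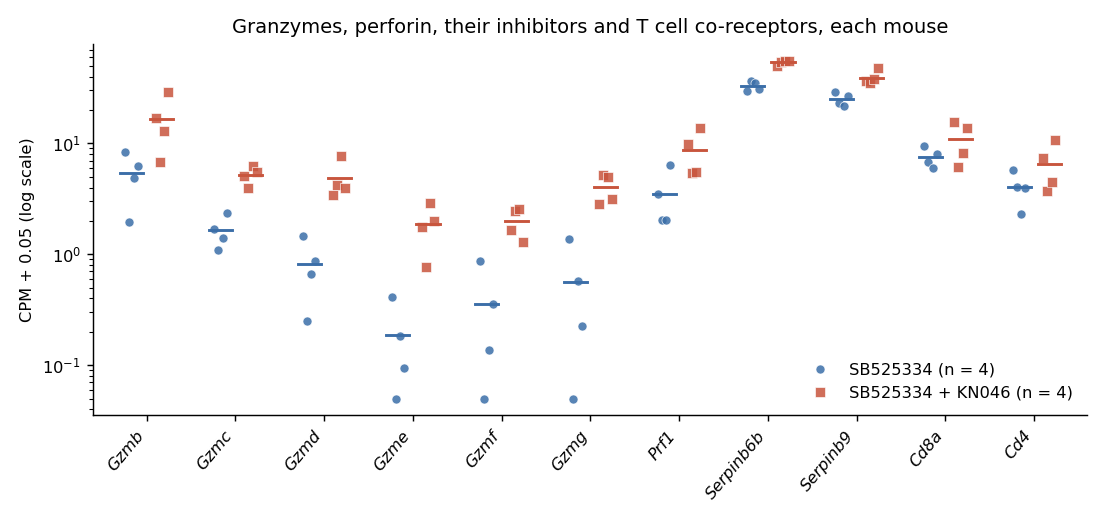
CPM + 0.05 on a log scale for granzymes, perforin, 2 granzyme inhibitors and the T cell co-receptors in each mouse, with SB525334 mice as blue circles, combination mice as red squares and the group mean as a bar. Gzmc, Gzmd, Gzme, Gzmg and the serpins separate the groups, as does Gzmf, which was not called, while Gzmb, Prf1, Cd8a and Cd4 overlap. A lack of overlap was part of the rule that named Gzme, and 5.99% of all genes tested had none.

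Granzyme B and perforin, the best known effectors, did not pass the threshold in edgeR. Gzmb had 8.37, 1.92, 4.82 and 6.24 CPM in SB525334 mice 1 to 4 and 17.0, 6.73, 12.98 and 29.1 CPM in combination mice 1 to 4, with combination mouse 2 inside the SB525334 range (log2 fold change 1.63, SE 0.45, adjusted p = 0.124), and it was called higher when combination mouse 2 was left out (adjusted p 0.0304). Prf1 had 3.48, 2.00, 1.97 and 6.28 CPM with SB525334 and 9.90, 5.40, 5.41 and 13.8 CPM with the combination (log2 fold change 1.33, adjusted p = 0.197), and was called when SB525334 mouse 4 was left out (adjusted p 0.0225) and in DESeq2 (adjusted p = 0.0298). Gzmf, another member of the cluster, had a log2 difference of 2.67 (adjusted p = 0.0903) and was called when SB525334 mouse 1 was left out (adjusted p 0.0165) and in DESeq2 (adjusted p = 0.00783). The inhibitors changed less but with little spread. Serpinb6b, an intracellular serpin, had 29.3, 36.3, 34.9 and 30.8 CPM in SB525334 mice 1 to 4 and 50.1, 54.2, 55.4 and 55.2 CPM in combination mice 1 to 4, a log2 difference of 0.71 (SE 0.10, adjusted p = 0.00104). Serpinb9, the granzyme B inhibitor that protects killer cells and tumor cells, rose from 25.2 ± 3.41 to 39.1 ± 5.75 CPM (adjusted p = 0.0215) and lost its call when SB525334 mouse 2 or 3 or combination mouse 4 was left out (adjusted p 0.0602 to 0.0887).

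T cell genes lay on the higher side without any passing the threshold in edgeR, although 8 had an unadjusted p under 0.05. All 13 tested T cell genes had a positive log2 fold change, against 52.7% of all genes tested, with a median of 0.90 and a lowest adjusted p of 0.0892. Cd8a, the co-receptor of cytotoxic T cells, had 9.47, 6.77, 5.92 and 8.02 CPM in SB525334 mice 1 to 4 and 15.4, 6.12, 8.12 and 13.7 CPM in combination mice 1 to 4, overlapping between the groups (log2 fold change 0.53, adjusted p = 0.655). Cd4 had 5.67, 4.004, 2.28 and 3.92 CPM with SB525334 and 7.26, 3.67, 4.47 and 10.6 CPM with the combination (log2 fold change 0.72, adjusted p = 0.616). Lck, the kinase of the T cell receptor, was at 7.05, 4.24, 4.08 and 4.67 CPM in SB525334 mice 1 to 4 and 9.59, 7.57, 7.84 and 14.9 CPM in combination mice 1 to 4, without overlap (log2 fold change 0.998, adjusted p = 0.0892), and it was called when SB525334 mouse 1 was left out (adjusted p 0.0444). DESeq2 called 3 genes of the list higher, Lck (adjusted p = 0.00825), Cd3g (0.00984) and Cd3d (0.0431). Combination mice 1 and 4 held the most summed T cell RNA, at 80.7, 43.9, 51.1 and 99.3 CPM for combination mice 1 to 4 against 50.2, 33.6, 29.5 and 41.6 CPM for the SB525334 mice. With both left out, a setting chosen after the data were seen, Cd8a had a log2 difference of -0.09. The 6 tested NK cell genes had a median of 0.74 and none was called by edgeR or DESeq2, with 3 at an unadjusted p under 0.05 in edgeR, and Ifng itself had at most 16 counts in a mouse (0.8293, 0.0557, 0.0552 and 0.0477 CPM in the combination mice) and was not tested.

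Genes that interferon-γ induces also shared a direction with no gene called by edgeR. All 22 tested members of the list had a positive log2 fold change, 18 had an unadjusted p under 0.05 and 0 passed the threshold in edgeR, with a median of 0.89, while DESeq2 called 4 higher. Over all genes tested 52.7% had a positive log2 fold change, and 4.41% were higher at an unadjusted p under 0.05 in edgeR. Gbp2, a guanylate-binding protein, had 82.7, 65.9, 42.8 and 102 CPM in SB525334 mice 1 to 4 and 292, 85.5, 126 and 247 CPM in combination mice 1 to 4, with combination mouse 2 inside the SB525334 range (log2 fold change 1.35, adjusted p = 0.0983). Iigp1, an immunity-related GTPase, had 30.1 ± 13.4 and 78.3 ± 37.5 CPM (adjusted p = 0.119). Without combination mouse 2 both genes were called higher, with adjusted p of 0.0157 and 0.0191, and Iigp1 also without SB525334 mouse 4 (0.0438). The summed level of the list was 844, 737, 532 and 995 CPM in SB525334 mice 1 to 4 and 2045, 779, 1086 and 1772 CPM in combination mice 1 to 4, high in combination mice 1 and 4 and overlapping between the groups for mouse 2. MHC class I and class II genes were called in neither direction by edgeR, with medians of 0.33 and 0.22 and 5 and 1 genes at an unadjusted p under 0.05, and DESeq2 called 1 gene of each list higher.

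Bst2, Ifitm3, Zbp1, Psmb10 and Casp4, which are outside that list, rose, and each lost its call in some fits. Bst2 (tetherin), which holds budding virus at the cell surface, had 120.3, 90.2, 93.3 and 113 CPM in SB525334 mice 1 to 4 and 160.4, 141, 132 and 169 CPM in combination mice 1 to 4, with a log2 difference of 0.53 (SE 0.12, adjusted p = 0.0363), and lost its call when SB525334 mouse 2 or 3 or combination mouse 1 or 4 was left out (adjusted p 0.0573 to 0.126). Ifitm3, a membrane protein that blocks virus entry, had a log2 difference of 0.46 (adjusted p = 0.0400), with 205, 209, 180.3 and 187 CPM with SB525334 and 281, 260.3, 228 and 302 CPM with the combination, and lost its call when SB525334 mouse 1, 2, 3 or 4 or combination mouse 1, 2 or 4 was left out (adjusted p 0.0511 to 0.128). Zbp1, a sensor of Z-form nucleic acids, went from 13.8 ± 3.12 to 28.8 ± 9.22 CPM (log2 fold change 1.06, adjusted p = 0.0337) and lost its call when SB525334 mouse 1, 2 or 3 or combination mouse 1, 3 or 4 was left out (adjusted p 0.0524 to 0.124). Psmb10, an immunoproteasome subunit, and Casp4, the inflammatory caspase that senses lipopolysaccharide, rose by 0.63 and 0.62 on the log2 scale. Psmb10 lost its call when SB525334 mouse 1, 2 or 3 or combination mouse 4 was left out (adjusted p 0.0575 to 0.0650), and Casp4 when SB525334 mouse 1, 2, 3 or 4 or combination mouse 1, 2 or 4 was left out (adjusted p 0.0530 to 0.114). With combination mice 1 and 4 both left out none of the 5 was called (adjusted p 0.0914 to 0.144). Apart from Bst2 and Ifitm3, these genes were named after their values were seen.

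Promoter windows from 250 bases before to 50 bases after each start site were read from GRCm39 with GENCODE M39 and searched on both strands. The letters GAAA, any 2 bases and then GAAA, the core of the interferon-stimulated response element, were found in 9 of the 57 promoters of genes called higher (15.8%), in 3.73% of promoters of genes tested and in 3.85% of all 21770 promoters. Bst2 and Zbp1 are shown because both rose and both hold overlapping matches within 150 bases of the start site, 2 in Bst2 (chr8:71990115-71990264, minus strand) and 4 in Zbp1 (chr2:173060725-173060874, minus strand). Sequences run 5′ to 3′ on the strand of the gene in GRCm39, and capitals mark matches on either strand.
Bst2: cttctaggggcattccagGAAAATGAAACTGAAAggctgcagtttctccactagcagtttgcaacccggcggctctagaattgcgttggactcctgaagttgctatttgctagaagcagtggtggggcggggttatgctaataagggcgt
Zbp1: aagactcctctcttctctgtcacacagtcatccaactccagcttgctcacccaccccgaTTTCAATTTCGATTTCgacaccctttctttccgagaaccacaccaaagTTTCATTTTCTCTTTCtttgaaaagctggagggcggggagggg
A match of letters is a description of the sequence and does not show that a factor binds there.

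The targets of KN046 were higher on average but did not pass the threshold in edgeR. Cd274, which encodes PD-L1, had 5.90, 4.16, 6.09 and 6.76 CPM in SB525334 mice 1 to 4 and 18.9, 6.68, 9.28 and 17.3 CPM in combination mice 1 to 4, with combination mouse 2 just inside the SB525334 range (log2 fold change 1.19, SE 0.30, adjusted p = 0.0863). It was called higher when combination mouse 2 was left out (adjusted p 0.0124) and in DESeq2 (adjusted p = 0.00459). Ctla4 had 0.366, 0.480, 0.438 and 1.26 CPM in SB525334 mice 1 to 4 and 3.89, 1.78, 1.16 and 3.62 CPM in combination mice 1 to 4 (log2 fold change 2.03, SE 0.49, adjusted p = 0.0645), and was called when SB525334 mouse 4 or combination mouse 3 was left out (adjusted p 0.0111 to 0.0327) and in DESeq2 (adjusted p = 0.00373). The lowest combination mouse was below the highest SB525334 mouse, mouse 4. Of 16 checkpoint and exhaustion genes 15 had a positive log2 fold change and 0 were called by edgeR, with a median of 0.50, 7 at an unadjusted p under 0.05 and 2 called higher by DESeq2. Tgfbr1, the target of SB525334 that both groups received, differed by less than the spread between mice (80.9 ± 9.09 and 84.0 ± 19.0 CPM, log2 fold change 0.05, adjusted p = 0.947).

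**Figure D4:**
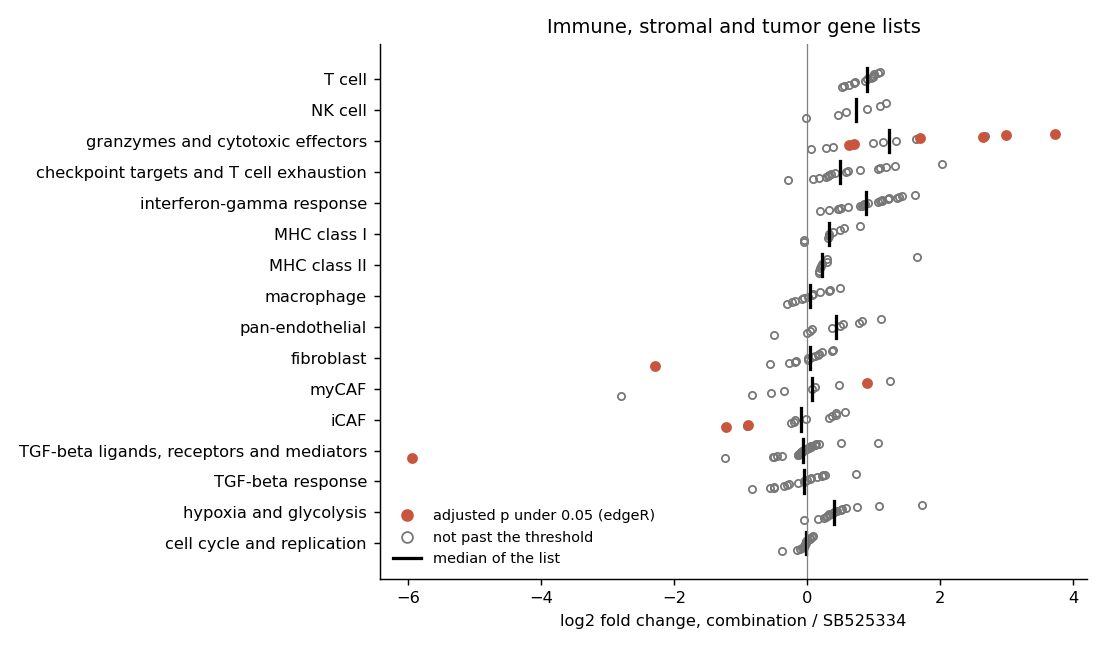
Log2 fold change (combination over SB525334) of each tested gene in 16 gene lists, with genes past the adjusted p of 0.05 filled in red, others open, and the median of each list as a black bar. T cell and interferon-γ genes sit on the positive side with medians of 0.90 and 0.89 and no filled point (edgeR), while cell cycle genes sit at 0.

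In 3 fibroblast lists 3 genes were called lower and 1 higher, beside 237 lower and 57 higher among all genes tested. Of 14 general fibroblast genes 1 fell, and the median was 0.04. Lum, a collagen-binding proteoglycan, had 25.03, 38.2, 22.8 and 34.3 CPM in SB525334 mice 1 to 4 and 3.01, 12.1, 8.504 and 1.24 CPM in combination mice 1 to 4, with every combination mouse below every SB525334 mouse (log2 fold change -2.29, SE 0.49, adjusted p = 0.0285). It lost its call when SB525334 mouse 1, 2 or 4 or combination mouse 1 or 3 was left out (adjusted p 0.05004 to 0.104). Among inflammatory fibroblast (iCAF) genes 2 of 12 fell. Col14a1, a fibril-associated collagen, had 29.7, 26.3, 27.9 and 36.6 CPM in SB525334 mice 1 to 4 and 12.96, 8.07, 14.9 and 15.8 CPM in combination mice 1 to 4 (log2 fold change -1.22, adjusted p = 0.00299) and kept its call in all 8 fits that left out 1 mouse. C3, the central complement protein, made by fibroblasts and hepatocytes, fell from 247 ± 46.5 to 133 ± 39.8 CPM (log2 fold change -0.89, adjusted p = 0.0384) and lost its call when SB525334 mouse 1, 2 or 3 or combination mouse 3 was left out (adjusted p 0.0510 to 0.136). Cxcl12, the chemokine of this fibroblast state, had 13.7, 13.8, 9.56 and 18.7 CPM with SB525334 and 8.03, 5.68, 6.41 and 9.44 CPM with the combination (log2 fold change -0.91, adjusted p = 0.0607), and was called lower when SB525334 mouse 3 or combination mouse 4 was left out (adjusted p 0.0217 to 0.0402) and in DESeq2 (adjusted p = 0.00325).

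Some markers of hepatic stellate cells, the vitamin A-storing pericytes of the liver that can give rise to fibroblasts, were lower. Of 8 tested stellate genes 2 fell, with a list median of -0.46. Log2 fold changes were negative for 6 genes and positive for 2, and 6 genes had an unadjusted p under 0.05 in edgeR, 1 of them higher. Reln (ENSMUSG00000042453, chromosome 5, 22089452 to 22549700), the secreted glycoprotein reelin, had 5.22, 4.24, 5.17 and 7.46 CPM in SB525334 mice 1 to 4 and 0.0518, 0.0557, 0 and 0.525 CPM in combination mice 1 to 4, with no overlap (log2 fold change -4.996, SE 0.61, adjusted p = 0.000522). Unlike the hepatocyte genes, Reln was highest and not lowest in SB525334 mouse 4. Colec11, a collectin, fell from 2.03 ± 1.12 to 0.200 ± 0.195 CPM (adjusted p = 0.0259) and lost its call when SB525334 mouse 1, 2 or 3 or combination mouse 1, 3 or 4 was left out (adjusted p 0.0515 to 0.0951). It was lowest in SB525334 mouse 4 (0.567 CPM), as were the hepatocyte genes, and was the 1 gene of the 8 with that order. Its direction was set by the filter on low counts, which it passed only through the SB525334 mice. Hgf, the hepatocyte growth factor that stellate cells secrete, was not called (2.95 ± 0.932 and 1.72 ± 0.546 CPM, adjusted p = 0.481). The summed level of the list was 102, 96.1, 104 and 127 CPM with SB525334 and 84.0, 96.7, 90.0 and 101 CPM with the combination.

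Outside the lists, Col15a1, Cygb, Gata4, Cxcl14, Aldh1a2, Steap4 and Ccdc80 fell, and Ccn5, Tnn, Hmcn1 and Lamc3 rose, with log2 differences of 0.89, 1.65, 1.86 and 2.10. These genes were picked with their values known. Tnn lost its call when SB525334 mouse 1, 2, 3 or 4 or combination mouse 1, 2 or 3 was left out (adjusted p 0.0568 to 0.138). Hmcn1 lost it when SB525334 mouse 1, 2 or 4 or combination mouse 1 or 3 was left out (adjusted p 0.0502 to 0.119), and Ccn5 when SB525334 mouse 3 or combination mouse 3 or 4 was left out (adjusted p 0.0529 to 0.0602). Col15a1, a basement membrane collagen, had 88.7, 60.5, 73.8 and 140.2 CPM in SB525334 mice 1 to 4 and 27.8, 20.3, 37.5 and 38.3 CPM in combination mice 1 to 4 (log2 fold change -1.55, adjusted p = 0.00500). Cygb, the globin of stellate cells, went from 9.33 ± 1.35 to 3.26 ± 0.591 CPM (log2 fold change -1.52, adjusted p = 0.000731). Gata4, a transcription factor of stellate cells and sinusoids, had 1.88, 1.802, 1.67 and 1.79 CPM with SB525334 and 1 count in the combination mice, a ratio of 136 (95% counting interval 24.1 to 5406). The direction of Gata4 was set by the filter on low counts, which it passed only through the SB525334 mice. Cxcl14, a fibroblast chemokine, Aldh1a2, which makes retinoic acid, and Steap4, a metalloreductase, had log2 differences of -1.48, -2.61 and -3.20. Ccdc80, a matrix protein of mesenchyme, fell from 39.6 ± 6.45 to 23.1 ± 2.29 CPM (adjusted p = 0.00478). Among genes called lower, SB525334 mouse 4 was the lowest of its group for 122 of the 137 that differed by over 16-fold and for 15 of the 33 that differed by under 4-fold.

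**Figure D5:**
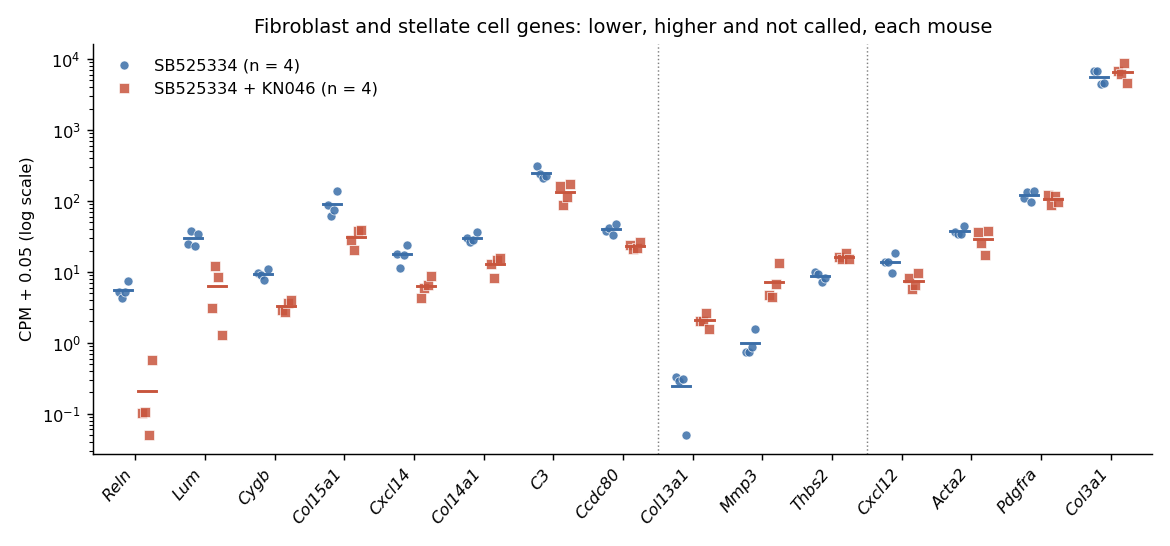
CPM + 0.05 on a log scale for 15 fibroblast and stellate cell genes in each mouse, with SB525334 mice as blue circles, combination mice as red squares and the group mean as a bar. From Reln to Ccdc80 the genes were called lower, from Col13a1 to Thbs2 higher, and from Cxcl12 on they were not called, with Acta2, Pdgfra and Col3a1 overlapping.

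Thbs2, Col13a1 and Mmp3 were called higher. Thbs2, a matricellular protein of the myofibroblast (myCAF) list, had 10.02, 9.17, 7.23 and 8.15 CPM in SB525334 mice 1 to 4 and 15.96, 15.2, 18.3 and 15.4 CPM in combination mice 1 to 4 (log2 fold change 0.91, SE 0.14, adjusted p = 0.00308), and was the 1 gene of 9 in that list called by edgeR. Col13a1, a membrane-bound collagen, had 0.275, 0.240, 0.263 and 0 CPM in SB525334 mice 1 to 4 and 1.97, 2.00, 2.60 and 1.53 CPM in combination mice 1 to 4 (log2 fold change 3.34, adjusted p = 0.00317). Mmp3, a secreted matrix protease, rose from 0.932 ± 0.403 to 7.24 ± 4.05 CPM (log2 fold change 2.96, adjusted p = 0.00135). These 3 calls held in all 8 fits that left out 1 mouse. Col13a1 passed the filter on low counts only through the combination mice, so that its direction was set by the filter. Acta2, which encodes α-smooth muscle actin, had 36.7, 34.1, 33.9 and 43.8 CPM in SB525334 mice 1 to 4 and 36.1, 25.8, 17.4 and 37.7 CPM in combination mice 1 to 4, overlapping between the groups (log2 fold change -0.34, adjusted p = 0.711), and was called lower with combination mice 1 and 4 both left out (adjusted p = 0.0384). Postn, periostin, had 41.5, 42.5, 36.8 and 44.0 CPM with SB525334 and 24.98, 22.7, 34.3 and 10.7 CPM with the combination, without overlap but not past the threshold (log2 fold change -0.83, adjusted p = 0.187), and it was called lower when combination mouse 3 was left out (adjusted p 0.0422) and in DESeq2 (adjusted p = 0.0326). Cthrc1, also of the myCAF list and named with its values known, went from 1.95 ± 1.14 to 0.276 ± 0.244 CPM without overlap. It did not pass the threshold in edgeR (log2 fold change -2.80, adjusted p = 0.0538). It was called lower when combination mouse 2 was left out (adjusted p 0.0433) and in DESeq2 (adjusted p = 0.00139). DESeq2 called 1 gene of the myCAF list higher and 2 lower. Fap, the fibroblast activation protein, had 1.34 ± 0.621 and 1.78 ± 0.748 CPM (adjusted p = 0.858), and Pdgfra, a receptor of most fibroblasts, 119.9 ± 19.0 and 106 ± 16.4 CPM (adjusted p = 0.772). Tagln and Il6 had at most 5 and 12 counts in a mouse and were not tested.

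Few genes of the TGF-β pathway were called between the groups, both of which received the inhibitor. Of 32 tested ligands, receptors and mediators 1 fell and 0 rose, with a median of -0.06. The gene that fell was Bmp5, a bone morphogenetic protein, with 1.51, 1.12, 1.32 and 0.741 CPM with SB525334 and 1 count in the combination mice, a ratio of 89.1 (95% counting interval 15.6 to 3549.5). Its direction was set by the filter on low counts, which it passed only through the SB525334 mice. Smad2 and Smad3, the signal carriers below the receptor, had log2 fold changes of 0.03 (SE 0.09) and -0.09 (SE 0.08), and Tgfb1 of 0.17 (adjusted p = 0.535). None of 19 TGF-β response genes was called by edgeR, with a median of -0.04 and 4 genes at an unadjusted p under 0.05, and DESeq2 called 2 lower. Ltbp2, a matrix protein related to those that store TGF-β, had 322, 298, 289.8 and 314 CPM with SB525334 and 271, 177, 216 and 199 CPM with the combination (log2 fold change -0.50, adjusted p = 0.0645), and was called lower when combination mouse 1 was left out (adjusted p 0.00332) and in DESeq2 (adjusted p = 0.00317). Inhbb, an activin subunit, had a log2 difference of 1.07 (adjusted p = 0.0720) and was called higher when SB525334 mouse 3 was left out (adjusted p 0.0132) and in DESeq2 (adjusted p = 0.00325). Col3a1 and Col1a1, fibrillar collagens, were at 5668 ± 1268 and 1296 ± 670.3 CPM with SB525334 and at 6616 ± 1783 and 876 ± 265 CPM with the combination, both within the spread of the mice.

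No cell cycle gene was called with all 8 mice in the fit. Of 16 genes tested 0 were called by edgeR or DESeq2 and 0 had an unadjusted p under 0.05, with a median log2 fold change of -0.02. Mki67, which marks cycling cells, had 159, 256, 157 and 176 CPM in SB525334 mice 1 to 4 and 267, 98.9, 63.0 and 144 CPM in combination mice 1 to 4, overlapping widely (adjusted p = 0.813), and Top2a, the topoisomerase of dividing cells, had 691 ± 62.8 and 653 ± 51.5 CPM (adjusted p = 0.881). With combination mice 1 and 4 both left out, Mki67 was called lower (adjusted p = 0.0226). Hypoxia and glycolysis genes had positive log2 fold changes for 15 of 16 genes, a median of 0.40 and no call in edgeR, where 8 had an unadjusted p under 0.05, and DESeq2 called 1 higher. In the epithelial list Krt8 and Krt18, keratins of simple epithelia including hepatocytes, both fell (log2 differences -5.93 and -5.59), from 16.4 ± 5.85 and 16.2 ± 4.87 CPM to 0.272 ± 0.415 and 0.338 ± 0.346 CPM. The other 6 of the 8 tested genes of that list were not called, and the intestinal markers Krt20 and Cdx2 had no count in any of the 8 mice.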

How the data were processed

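RNA of liver metastases was sequenced, 1 library per mouse. According to the paper's methods and the submitters' processing notes, reads had been trimmed (Cutadapt 2.7), mapped to GRCm39 (HISAT2 2.2.1) and counted per gene (HTSeq 2.0.4) by the authors, and the deposited raw counts were used here. Strand and multi-mapping settings are not given in the sources used here. The normalized values made with DESeq2 1.38.3 were not used.

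Counts of the 8 mice were scaled by TMM, filtered with filterByExpr at a minimum count of 10, which kept 13114 of 21959 genes, and tested with the quasi-likelihood test of edgeR 4.0.16 in R 4.3.3 at a Benjamini-Hochberg adjusted p under 0.05. The script was tested on simulated data. Log2 fold changes are combination over SB525334. Where every mouse of a group had no count, a floor of 3 counts per library gives a bound, and with 1 to 3 counts in a group a ratio with a 95% interval is given, which covers counting error only. DESeq2 1.42.0, other scalings, filters and samples were alternatives. Of 21959 gene IDs 21770 matched GENCODE M39, which gave names, positions and promoters. Named are the 10 largest changes and the 5 most abundant called genes in each direction, with a mean of at least 1 CPM in the higher group and no overlap, the genes of the proteins the study measured and of the drug targets, and members of gene lists. The members and lists were chosen with earlier results of these data known. Genes given outside this rule are named with their values already known. Some genes are not reported here.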

Additional observations from a re-analysis of the deposited data

Results flagged for a closer look

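Single mice stood far from the other 3 of their group in 21 of the 336 groups of 4 values examined, where the gap to the nearest mouse exceeded the 95% critical value of Dixon's test. Chance flags about 1 in 20 groups, or 16.8 here. Their causes were not tested.

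SB525334 mouse 4 was the lowest for genes that hepatocytes express. It had 12.9 CPM of Fgg, a fibrinogen chain, against 49.6 to 54.4 CPM in the other mice, and 3.23 CPM of Kng2 against 7.21 to 8.01 CPM. Krt8 was at 7.76 CPM there against 18.02 to 20.1 CPM, and Krt18 at 8.89 CPM against 18.2 to 18.9 CPM. Clec4g was at 0.0436 CPM against 0.869 to 1.01 CPM, and Col13a1 at 0 against 0.240 to 0.275 CPM. The same mouse was the highest for Ctla4, at 1.26 CPM against 0.366 to 0.480 CPM.

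Combination mouse 4 was the highest for genes of plasma cells and neutrophils. Jchain, the joining chain of secreted antibodies, was at 68.0 CPM there against 3.59 to 12.4 CPM, S100a8 at 47.8 CPM against 0.331 to 4.01 CPM and S100a9 at 82.3 CPM against 0.497 to 6.46 CPM, the last 2 being subunits of calprotectin. Nos2, the inducible nitric oxide synthase, was at 30.1 CPM against 9.22 to 11.04 CPM, Nkx2-5 at 1.48 CPM against 0.570 to 0.718 CPM and Reln at 0.525 CPM against 0 to 0.0557 CPM. Clec4g was at 0.286 CPM and at 0 in the other 3 mice.

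The other mice that stood apart did so mostly at low levels. In combination mouse 1 Ifng was at 0.8293 CPM against 0.0477 to 0.0557 CPM, in mouse 2 Krt8 was at 0.891 CPM against 0 to 0.104 CPM, and in mouse 3 Hamp, the iron hormone hepcidin, was at 0.497 CPM against 0.0477 to 0.111 CPM. In SB525334 mouse 1 Jchain was at 5.54 CPM against 1.58 to 2.12 CPM. In SB525334 mouse 3 Il6 was at 0.307 CPM against 0 to 0.0400 CPM, S100a8 at 2.63 CPM against 0 to 0.392 CPM and S100a9 at 6.84 CPM against 0.160 to 0.869 CPM.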

How the results depend on the processing

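The number of higher genes, 57, was 145 with DESeq2 (56 shared), 144 at the thresholds of the study's methods (DESeq2, unadjusted p under 0.05 and over 2-fold), 103 with no filter on low counts, and 88 with combination mice 1 and 4 both left out, a setting chosen after the data were seen (31 shared). The number of lower genes, 237, was 384 with no filter and 423 with all 16 mice in the fit (228 shared). Leaving out 1 mouse gave 40 to 86 higher genes, with 86 without combination mouse 2, and 191 to 336 lower genes. Other scalings gave 53 to 57 higher and 236 to 238 lower genes and moved the median of all genes to between -0.00146 and 0.00581. Of 124 called genes among the 174 tested and named by the rule or after their values were seen, 89 kept their call in all 8 fits without 1 mouse. The log2 fold change changed sign for Cd8a (-0.0858) and Smad2 (-0.0057) without combination mice 1 and 4. Leaving out 1 mouse gave -0.0094 (without SB525334 mouse 2) to 0.0678 for Smad2 and -0.0452 to 0.1559 for Tgfbr1, negative without SB525334 mouse 2 or combination mouse 1 or 3. The cause was not tested. Mice with the same replicate number shared only a number, with correlations of their deviations of -0.110, -0.113, -0.00342 and 0.0860 and not every mouse closest to its own number. With the replicate block 62 higher genes (40 shared) and 214 lower genes (210 shared) were called. Genes with few counts, including the 63 lower genes with at most 3 counts in each combination mouse, have wide intervals.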

Other observations

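Among genes of fatty acid and lipid metabolism 2 of 17 tested genes fell, with a list median of -0.25. Fabp1, the fatty acid-binding protein of liver, had 3.75, 8.85, 3.68 and 1.09 CPM with SB525334 and 2 counts in the combination mice, a ratio of 169.9 (95% counting interval 46.7 to 1407). Its direction was set by the filter on low counts, which it passed only through the SB525334 mice. Fabp4, the form of adipocytes, capillaries and macrophages, fell from 13.1 ± 3.91 to 3.21 ± 2.06 CPM (log2 fold change -2.03, adjusted p = 0.0111 from edgeR), and lost its call with combination mice 1 and 4 both left out (adjusted p = 0.0707). None of 12 immediate early and heat shock genes was called by edgeR, with 11 at a positive log2 fold change (median 0.56) and 5 at an unadjusted p under 0.05, and DESeq2 called 2 higher. The 7 tested dendritic cell genes had a median of -0.25 and the 5 tested neutrophil genes of 0.75, with no call in either list by edgeR or DESeq2 and 1 and 2 genes at an unadjusted p under 0.05 in edgeR.

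Lamc3, Procr and Rgs1, picked with their values known, rose. Lamc3, a laminin chain of basement membranes, went from 0.538 ± 0.191 to 2.33 ± 0.517 CPM (log2 fold change 2.10, adjusted p = 0.00514 from edgeR). Procr, the endothelial receptor of protein C, had 21.1, 21.5, 22.0 and 21.8 CPM in SB525334 mice 1 to 4 and 29.1, 35.7, 27.1 and 38.3 CPM in combination mice 1 to 4 (log2 fold change 0.59, adjusted p = 0.0201), without overlap, and lost its call when SB525334 mouse 1, 2 or 3 or combination mouse 2 or 4 was left out (adjusted p 0.0510 to 0.0751). Rgs1, a regulator of G-protein signaling in activated lymphocytes, went from 5.74 ± 4.17 to 26.5 ± 11.9 CPM (log2 fold change 2.21, adjusted p = 0.0182) and lost its call when SB525334 mouse 1 or 2 was left out (adjusted p 0.0562 to 0.0679). With combination mice 1 and 4 both left out, none of the 3 was called (adjusted p 0.0527 for Lamc3, 0.0527 for Procr and 0.0507 for Rgs1).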
